A study of Mus musculus with 15 samples.

Results

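Of the 14729 autosomal ATAC-seq peaks of EL4 cells that had base pairs in both replicates, 692 shared no base pair with a peak of H3K4me3, H3K9ac, H3K27ac, H3K27me3 or H3K36me2. They are called unmarked peaks here. The members were chosen by these 5 overlaps, so that the lack of a mark, the share of 4.7% and the gaps to the marks are descriptions with no test. EL4 is a mouse T-lymphoma cell line of strain C57BL/6N, and the study mapped its chromatin with 2 ATAC-seq lists and 2 ChIP-seq lists for each of the 5 histone marks. All libraries came from this 1 line, the labels name no treatment, and each list holds the start and end of called intervals with no read count, so that the depth behind a peak is unknown. Intervals of both replicates that overlapped or adjoined were merged into 1 peak. The paper describes the replicates as technical, and their spread is therefore not that of separate cultures.

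ATAC-seq reads come from DNA into which a transposase can insert, which is mostly DNA free of nucleosomes at promoters, enhancers and insulators. H3K4me3 and H3K9ac sit on nucleosomes beside active promoters and H3K27ac beside active promoters and enhancers, while H3K27me3 is laid down by Polycomb over silenced genes and H3K36me2 covers broad intergenic and genic domains. Sites bound by the insulator protein CTCF are a well-known class of accessible DNA that can lie away from promoters. In T cells, accessible sites around the Cd3 genes, Tox and other lineage genes are known for their regulatory role.

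The lists held 17101 and 18788 autosomal ATAC-seq intervals in replicates 1 and 2, and the merged marks held between 17931 (H3K4me3) and 43304 (H3K27me3) autosomal peaks. Of the 8 T lineage marker genes, 8 had an H3K4me3 peak at a gene end and 7 had an ATAC-seq peak there, the exception being Cd3e. Among markers of other lineages, Cd79a (B cells) and Lyz2 (myeloid cells) had both kinds of peak and Csf1r (macrophages) had neither.

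Unmarked peaks touched 15 of the 31396 autosomal promoter windows of RefSeq (250 bases before to 50 after a transcript start), which belonged to 14 genes. The windows cover 25748 of the 47042 autosomal genes, so that this count is a lower bound. In all 15 windows a called accessible site reached the window of an annotated transcript start, and none of the 5 marks was called on that site. Marks in the rest of the window were not counted. Only 6 of them are shown, and these do not represent the 15. Each of the 6 holds a motif match and 6 to 32 CpG, against a median of 5 over the 15. Windows without a match, such as those of Lix1 and Gm38525, are not shown. The sequences are the bases before the transcript start that lie inside both the peak and the window, 5′ to 3′ on the strand of the gene, from RefSeq on GRCm38.p6. Capitals mark matches, on either strand, to the 8 motifs that were searched, those of RUNX, ETS, TCF/LEF, AP-1, E-box, SP/KLF and GATA factors and the CTCF core. No match overlapped a match of another motif in these 6 sequences.
Rpl41: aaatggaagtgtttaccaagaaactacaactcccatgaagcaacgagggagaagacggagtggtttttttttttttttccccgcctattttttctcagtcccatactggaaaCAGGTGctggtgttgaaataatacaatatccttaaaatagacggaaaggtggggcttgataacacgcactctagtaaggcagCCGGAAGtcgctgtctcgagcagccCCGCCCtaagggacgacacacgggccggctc
Syt11: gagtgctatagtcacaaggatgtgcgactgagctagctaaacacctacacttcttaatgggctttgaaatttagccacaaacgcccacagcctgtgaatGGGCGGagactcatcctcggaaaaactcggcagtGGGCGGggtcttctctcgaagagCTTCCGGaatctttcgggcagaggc
Scnn1g: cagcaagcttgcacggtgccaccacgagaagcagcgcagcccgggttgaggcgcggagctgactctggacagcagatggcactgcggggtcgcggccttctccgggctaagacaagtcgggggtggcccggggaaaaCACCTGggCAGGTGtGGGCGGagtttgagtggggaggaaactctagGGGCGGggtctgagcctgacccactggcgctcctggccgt
Map3k12: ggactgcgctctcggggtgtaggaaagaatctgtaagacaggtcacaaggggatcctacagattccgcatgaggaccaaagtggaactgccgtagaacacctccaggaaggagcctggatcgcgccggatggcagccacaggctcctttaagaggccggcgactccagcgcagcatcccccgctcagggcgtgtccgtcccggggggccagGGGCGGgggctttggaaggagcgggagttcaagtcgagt
Gm15564: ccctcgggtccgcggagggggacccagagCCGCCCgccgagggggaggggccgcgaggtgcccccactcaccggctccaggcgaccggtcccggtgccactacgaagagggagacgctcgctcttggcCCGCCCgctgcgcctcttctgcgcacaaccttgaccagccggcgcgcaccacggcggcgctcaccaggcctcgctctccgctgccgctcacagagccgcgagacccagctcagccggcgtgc
Tiam1: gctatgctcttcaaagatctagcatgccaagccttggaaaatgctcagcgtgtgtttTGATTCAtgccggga

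Rpl41 encodes a protein of the large ribosomal subunit, and the sequence shown lies at chr10:128549169-128549418 on the minus strand. Its peak was 573 bp wide, with 561 bp covered in replicate 1 and 573 bp in replicate 2. The nearest mark was H3K27ac, 149 bp away, whereas the nearest H3K4me3 peak was 12004 bp away. The Rpl41 window held an ETS match, an E-box match and an SP/KLF match.

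Syt11, which encodes a synaptotagmin of vesicle traffic, had a 227-bp peak with 208 and 215 bp in the 2 replicates (sequence at chr3:88772600-88772780, minus strand). Its H3K4me3, H3K9ac and H3K27ac peaks lay 624, 813 and 874 bp away. Tiam1, named for T-lymphoma invasion and metastasis and an activator of the GTPase Rac1, had a 380-bp peak with 299 and 378 bp (sequence at chr16:89974700-89974771, minus strand). All 3 active marks lay close to it, H3K27ac at 68 bp, H3K4me3 at 344 bp and H3K9ac at 386 bp. Both the Syt11 and the Tiam1 peak thus had H3K4me3, H3K9ac and H3K27ac within 1000 bp.

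Scnn1g, the gamma subunit of the epithelial sodium channel, differed from these genes in its surroundings, since the nearest mark was H3K27me3 at 4932 bp and H3K4me3 was 26166 bp away. Its peak of 320 bp had 286 and 317 bp in the replicates (sequence at chr7:121734229-121734451, plus strand). Map3k12, a kinase of stress signaling in neurons, had a 430-bp peak, of which 234 and 417 bp were in the replicates, 82 bp from an H3K36me2 peak (sequence at chr15:102517005-102517254, minus strand). Gm15564, a lncRNA beside Kpna1, started within one of the widest unmarked peaks (1247 bp, with 919 and 1247 bp in the replicates, sequence at chr16:35983330-35983579, minus strand). Its 250 bases had a GC content of 75.6% and held 32 CpG, the highest of the 15 windows.

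The other windows belonged to Lix1, Gm38525, LOC115486439, Gm33327, Gm30657, Gm33543, Gm33073 and, with 2 windows, Gm41331. The median GC content of the 250 bases before the start was 48% over the 15 windows, 62% over the 8694 windows touched by marked peaks and 52.4% over all windows. The median number of CpG was 5, 18 and 6, respectively. The SP/KLF motif, spelled GGGCGG and shared by many GC-rich promoters, was found in 6 of the 15 windows, compared with 33.0% of all windows and 65.4% of those touched by marked peaks. The AP-1 motif, spelled TGANTCA, was found in 3 windows, compared with 6.77% of all windows. An E-box, spelled CAGGTG, was also found in 3 windows, compared with 17.4%. RUNX, spelled TGTGGTT, was found in 2 windows against 4.42% of all windows, and ETS, spelled CCGGAAG, in 2 windows against 7.01%. No match was found for TCF/LEF, spelled ATCAAAG, which 3.23% of all windows hold. The same was true of GATA, spelled AGATAAG and held by 2.72% of all windows, and of the CTCF core, held by 0.522%. These are letters in a window and not bound sites, and 15 windows are too few to compare with other shares. No unmarked peak touched any of 919 autosomal miRNA hairpins, but no such count is at hand for marked peaks to set beside it.

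Unmarked peaks were narrow. Their median width was 359.5 bp (interquartile range 308 to 408 bp), compared with 564 bp (422 to 784 bp) for the 14037 peaks that touched at least 1 mark, called marked peaks below. Within replicates 1 and 2 the unmarked peaks covered a median of 295 and 308 bp, and the marked peaks 477 and 517 bp. The ATAC-seq peaks most like them were the 411 marked peaks that touched H3K36me2 and none of the 4 other marks (H3K36me2-only), with a median of 342 bp. A wide peak has more base pairs with which to touch a mark, so width is tied to the rule and was not tested.

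**Figure D1:**
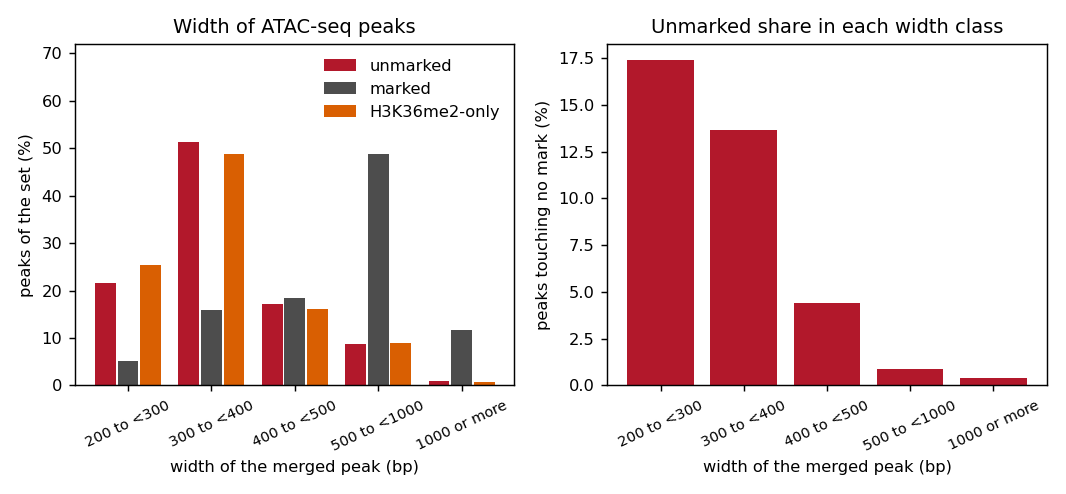
Left, share of unmarked, marked and H3K36me2-only ATAC-seq peaks (bars, %) in 5 classes of merged width (bp). Right, share of the ATAC-seq peaks of each class that touched no mark (%), which fell from 17.4% at 200 to under 300 bp to 0.422% at 1000 bp or more.

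Of the unmarked peaks, 355 were 300 to under 400 bp wide and 150 were narrower. The share of ATAC-seq peaks that touched no mark was 17.4% in the narrowest class, 13.7% at 300 to under 400 bp, 4.41% at 400 to under 500 bp and 0.883% at 500 to under 1000 bp. Only 7 unmarked peaks reached 1000 bp, as the plot of widths shows. The base pairs in both replicates made up a median fraction of 0.731 of an unmarked peak and 0.784 of a marked peak.

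Unmarked peaks made up a larger share of the peaks that were called in 1 replicate. Of 1816 merged autosomal ATAC-seq peaks found in replicate 1 alone 431 (23.7%) were unmarked, and of 3728 found in replicate 2 alone 723 (19.4%) were. These had median widths of 225 and 230 bp. Taking the intervals of each replicate by themselves, 6.81% of replicate 1 and 7.60% of replicate 2 touched no mark, which gives 7.20% ± 0.561 (SD, n = 2). The requirement of both replicates thus left 692 of 1846 unmarked peaks, and the results below are for these 692.

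Gene position is not in the rule but is tied to it, since the marks themselves differ in where they lie along genes, with H3K4me3, H3K9ac and H3K27ac beside active promoters. The unmarked peaks were spread almost evenly over 3 kinds of position, while most marked peaks lay at gene ends. Of the unmarked peaks, 197 (28.5%) lay at a gene end (the stretch from 3 kb before to 2 kb after a gene's border, at its start and, mirrored, at its end), against 65.5% of all 14729 peaks. A further 245 (35.4%) lay in a gene interior, against 23.1% of all peaks, and 250 (36.1%) touched neither and were intergenic, against 11.4%. The H3K36me2-only peaks were found in gene interiors in 60.8% and at intergenic positions in 16.3%. When the intervals of each ATAC-seq replicate were taken alone, the unmarked shares were 26.7% ± 0.955 at gene ends, 37.3% ± 0.678 in interiors and 35.96% ± 1.63 at intergenic positions (SD, n = 2). The marked shares were 64.6% ± 1.60, 24.4% ± 1.08 and 10.9% ± 0.519, so that unmarked and marked peaks differed by more than the spread between replicates in all 3 positions.

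**Figure D2:**
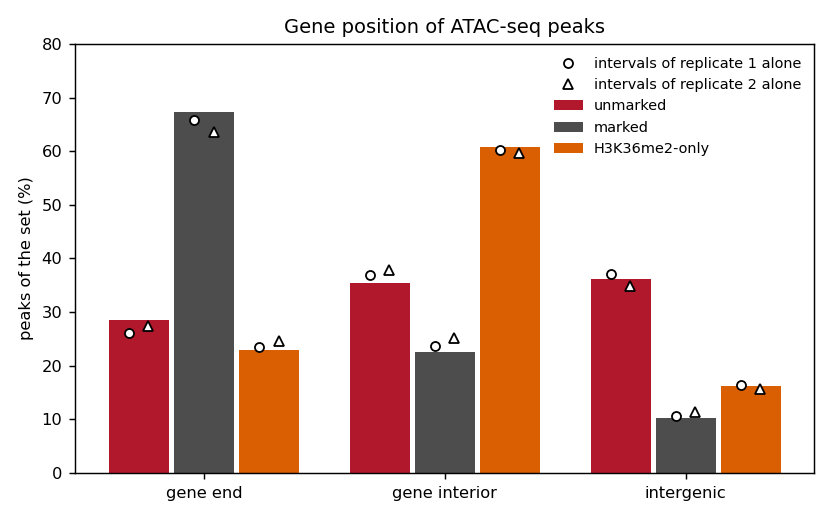
Share of ATAC-seq peaks (bars, %) at gene ends, in gene interiors and at intergenic positions for unmarked, marked and H3K36me2-only peaks. Circles and triangles give the shares among intervals of replicate 1 and replicate 2 alone, which stay close to the bars, and the intergenic bar of the unmarked peaks (36.1%) is the highest of the 3 sets.

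Differences were tested over the 19 autosomes with a 2-sided permutation test that flips the sign of each autosome's difference, adjusted by Benjamini-Hochberg over 6 tests. Against the marked peaks, the share at gene ends was lower by a mean of 39.9 ± 9.43 percentage points (SD over autosomes) and was lower on 19 of 19 autosomes (adjusted permutation p = 2.00e-05). The intergenic share was higher by 25.7 ± 8.38 points on 19 of 19 (adjusted permutation p = 2.00e-05), and the share in gene interiors by 14.2 ± 9.03 points on 19 of 19 (adjusted permutation p = 2.00e-05). The unadjusted p of each of these 3 tests was 1e-05, the smallest that the 100000 resamples can give. Since peaks at promoter marks were removed by the rule, a lower share at gene ends follows in part from the choice of members, and these p-values say only that the differences were alike across autosomes. Autosomes are parts of 1 genome and no biological replicates.

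Against the H3K36me2-only peaks, whose median width was close to theirs, the unmarked peaks were more often intergenic, by 20.4 ± 14.1 points on 18 of 19 autosomes (adjusted permutation p = 2.40e-05). They were less often in gene interiors, by a mean of 27.1 ± 18.0 points on 18 of 19 (adjusted permutation p = 2.40e-05). The share at gene ends was higher by 6.75 ± 12.8 points on 16 of 19 autosomes (adjusted permutation p = 0.0335). On chromosomes 14 and 16 there were only 3 and 4 H3K36me2-only peaks. That set was chosen for touching H3K36me2, which the paper describes as more abundant in gene bodies. Its interior and intergenic differences from the unmarked peaks may thus follow in part from the choice of members. Here too the p-values say only that the differences were alike across autosomes. The call at gene ends was lost in 9 of 15 other ways of processing, with values down to 0.311 points when unmarked peaks had to lie more than 1000 bp from any mark. It was lost without replicate 2 of ATAC-seq (3.02 points) and without replicate 1 (6.89) or 2 (3.43) of ChIP-seq.

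**Figure D3:**
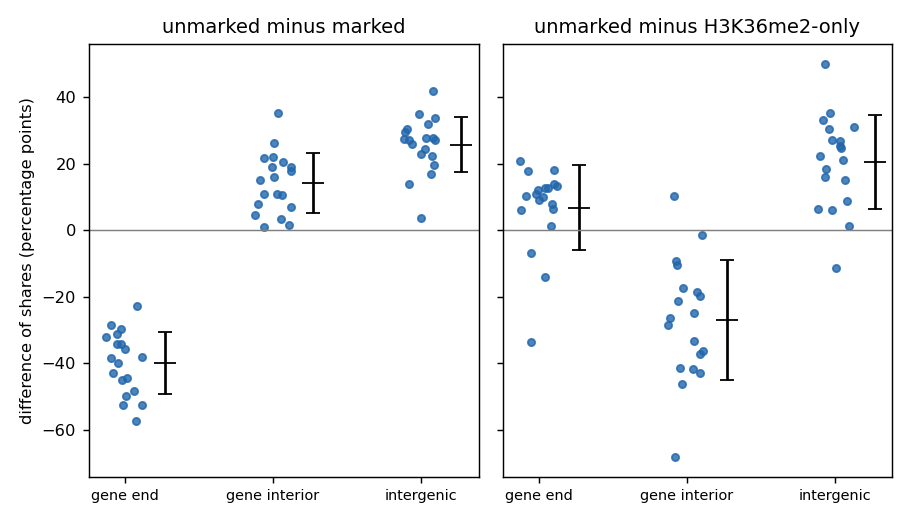
Difference between the shares of unmarked and marked peaks (left) and of unmarked and H3K36me2-only peaks (right) in each gene position, in percentage points, 1 point per autosome (n = 19) with the mean and SD beside them. On the left no point crosses 0, and on the right the gene end points lie on both sides of it.

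Gaps to the marks varied widely. The median gap from an unmarked peak to the nearest peak of any mark was 2788 bp (interquartile range 585 to 10363 bp), and 224 of the 692 (32.4%) had one within 1000 bp. The median was 5915 bp when only mark peaks touched by both replicates counted, and 998 bp when peaks covered by less than 50% by each mark were counted as unmarked. For single marks the median gaps were 11785 bp to H3K36me2, 23415 bp to H3K27ac, 30262 bp to H3K4me3, 32323 bp to H3K9ac and 64373 bp to H3K27me3. H3K36me2 lay within 1000 bp of 126 unmarked peaks (18.2%), H3K27ac of 77 (11.1%), H3K4me3 of 49 (7.08%), H3K27me3 of 42 (6.07%) and H3K9ac of 37 (5.35%). Within 100 bp the order was another, with H3K27ac beside 25 unmarked peaks and H3K36me2 beside 15. Among marked peaks not touching the mark in question, 39.7% had H3K36me2 within 1000 bp, 22.8% H3K27ac and 16.3% H3K9ac. For H3K4me3 the share was 9.96% and for H3K27me3 0.914%. Among H3K36me2-only peaks the shares were 20.9% for H3K27ac, 4.87% for H3K9ac, 4.62% for H3K4me3 and 0% for H3K27me3. These differences were not tested. The gaps depend on how much of the genome each mark covers, which differs between marks.

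**Figure D4:**
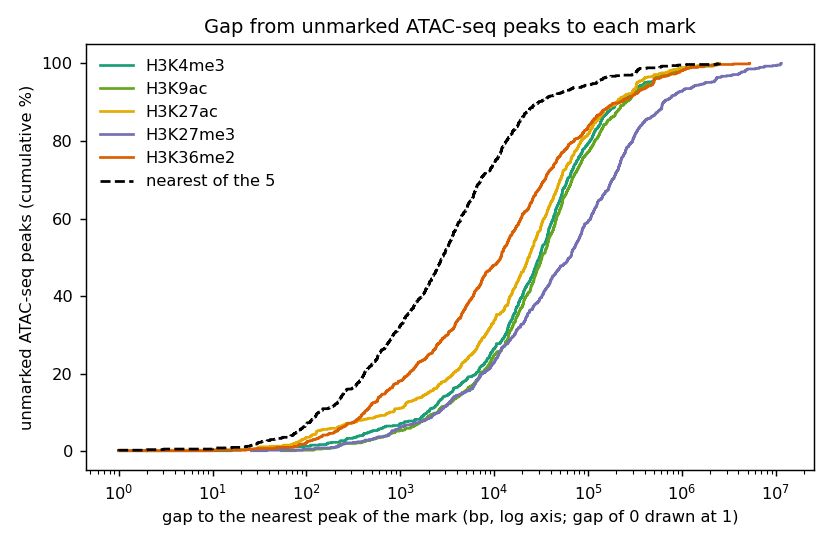
Cumulative share of the 692 unmarked ATAC-seq peaks (%) by the gap in bp (log axis) to the nearest peak of each mark and of the nearest of the 5 marks (dashed). The H3K36me2 curve is leftmost among single marks at 1000 bp and at the median (11785 bp), the H3K27ac curve is leftmost at 100 bp, and the H3K27me3 curve is rightmost over most of its length (median 64373 bp).

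The nearest mark was H3K36me2 for 286 unmarked peaks (41.3%), H3K27me3 for 186 (26.9%), H3K4me3 for 108 (15.6%), H3K27ac for 100 (14.5%) and H3K9ac for 12 (1.73%). The nearest broad domains on the left and right were both H3K36me2 for 337 peaks (48.7%), 1 of each broad mark for 198 (28.6%) and both H3K27me3 for 147 (21.2%). Of the 147 between H3K27me3 domains, 44.9% lay in gene interiors, compared with 36.5% of the 337 between H3K36me2 domains. The share of intergenic peaks went from 28.6% of the 49 peaks with a mark within 100 bp to 65.8% of the 38 with a gap over 100000 bp.

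The peaks at either side of the rule's threshold were 256 to 481 bp wide. Just inside it, a 481-bp peak at Mosmo, a regulator of Hedgehog signaling, adjoined an H3K4me3 peak without sharing a base pair (chr7:120693979-120694459). A 373-bp peak in Dapp1, an adaptor of lymphocyte signaling, was 1 bp from an H3K36me2 peak, and a 302-bp peak near Gm13870 was 2 bp from an H3K27ac peak. Just outside it, the marked peaks with the fewest shared base pairs were a 368-bp peak at Ldlrad4 (2 bp of H3K4me3), a 304-bp peak at Mob3a (4 bp of H3K9ac) and a 256-bp peak at Klhl29 (10 bp of H3K4me3).

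The 5 unmarked peaks farthest from any mark were narrow, and 1 of them lay inside a gene. The most remote one, 383 bp at chr12:47833812-47834194 near the gene Gm7392, was 2515819 bp from its nearest mark peak and covered 383 and 346 bp in the replicates. The next were 363 bp at chr8:98882378-98882740 near Gm29817 (2329530 bp) and 382 bp at chr14:108373868-108374249 near Gm24229 (1116668 bp). A 378-bp peak inside Plpp3, which encodes a lipid phosphatase, followed at 903974 bp (chr4:105190849-105191226), and a 326-bp peak near Gm53054 at 724621 bp (chr1:102628092-102628417).

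The widest unmarked peaks were of another kind. A 6563-bp peak at chr16:3231596-3238158 was covered over 5719 and 6563 bp in the replicates, and a 3364-bp peak followed 59 bp after it. Both lay at intergenic positions whose nearest gene was the pseudogene Gm3749. Next came 3 peaks of 2966, 1737 and 1612 bp that belong to a cluster on chromosome 4. The 5 widest unmarked peaks were thus at 2 places of the genome, both near the start of a chromosome. Within 1000000 bp of the first position counted on each chromosome lay 15 unmarked peaks (2.17%), these 2 places among them. The share was 1.07% for marked and 0.973% for H3K36me2-only peaks. The difference was not tested, and the sequence of these peaks was not examined.

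Among the wide peaks at genes, a 1437-bp peak at Klf10, a zinc finger factor induced by TGF-beta, lay 577 bp from H3K36me2 (chr15:38298777-38300213, with 1233 and 1359 bp in the replicates). The 1247-bp peak at Gm15564 and Kpna1, which encodes a nuclear import receptor, lay 3920 bp from H3K36me2. An 861-bp peak lay 10517 bp from Tox, an HMG-box factor of T cell development (chr4:6674975-6675835), with 409 bp in replicate 1, 843 bp in replicate 2 and a gap of 365 bp to H3K36me2. The remaining 2 of the 10 widest were 863 bp near Gm4419 and 822 bp near Lrrc28.

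Most unmarked peaks stood alone. The median gap to the next unmarked peak was 684196 bp, and 40 of 692 (5.78%) had another within 10 kb, in 16 pairs and 1 cluster of 8. The share was 8.85% without ATAC-seq replicate 2 and 9.53% over all merged ATAC-seq peaks. Of the marked peaks 39.1% had another marked peak within 10 kb, but that set is far larger, and among the 411 H3K36me2-only peaks the share was 3.89%. Any other ATAC-seq peak lay within 10 kb of 26.9% of unmarked, 39.9% of marked and 37.2% of H3K36me2-only peaks.

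The cluster of 8 lay at chr4:3052112-3069720 with the vomeronasal receptor pseudogene Vmn1r-ps2 as the nearest gene, 33978 bp away. Its peaks were 311 to 2966 bp wide and at least 322199 bp from any mark. Replicate 1 had 16 intervals in these 17609 bp, covering 6311 bp, and replicate 2 had 13, covering 8583 bp. Only 4352 bp were covered in both, as the map of the cluster shows.

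Among the pairs, the one with the shortest span was at chr14:99449037-99450351, 61258 bp from the pseudogene Gm49219 and 3537 bp from an H3K27ac peak. Another at chr12:113217835-113220842 lay between Tmem121 (28311 bp away) and the immunoglobulin heavy chain constant gene Igha (35361 bp away), beside the snRNA gene Gm25622. Its peaks were 412 and 402 bp wide, and the second was 984 bp from H3K4me3. Pairs inside genes were found in Nav2, a neuron navigator gene, with 333 and 376 bp, and in Nrp1, a receptor for semaphorins and VEGF, with 322 and 222 bp.

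Across chromosomes the unmarked share of ATAC-seq peaks ranged from 1.45% on chromosome 19, with 6 unmarked peaks, to 7.29% on chromosome 13, with 46. The median over autosomes was 4.24%.

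The touched or nearest gene was protein-coding for most unmarked peaks, but less often than for marked or H3K36me2-only peaks. Unmarked peaks touched a gene in 339 cases (49.0%), against 85.1% of marked and 75.7% of H3K36me2-only peaks. The touched or nearest gene was protein-coding for 434 (62.7%), a lncRNA for 167 (24.1%) and a pseudogene for 75 (10.8%). The same shares were 85.5, 10.6 and 2.27% for marked peaks and 83.0, 10.7 and 4.14% for H3K36me2-only peaks. These shares were not tested. Of the 47042 autosomal genes 20665 are protein-coding, and such genes were taken first where a peak touched several.

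In all, 651 genes were touched by or nearest to an unmarked peak, and 619 of them had a single one. Beside Vmn1r-ps2 with 8, the genes with 3 unmarked peaks were Nav2, Nrp1 and Tex14, a gene of male germ cells, singled out here after their counts were seen. They also had 5, 1 and 6 marked peaks, respectively. Each of the Tex14 peaks also touched a gene of the U3 small nucleolar RNA (Rnu3b1, Rnu3b3 or Rnu3b4). H3K9ac lay at gaps of 54, 77 and 147 bp, H3K27ac at 57, 83 and 141 bp and H3K4me3 at 229, 169 and 267 bp. Among families, vomeronasal receptor genes and pseudogenes were touched by or nearest to 11 unmarked peaks (1.59%), 8 of them in the chromosome 4 cluster, and to 6 marked peaks (0.0427%). Olfactory receptor genes were so for 5 unmarked (0.723%) and 6 marked peaks (0.0427%), and Zfp zinc finger genes for 5 (0.723%) and 318 (2.27%). T cell receptor loci had none and 8 (0.0570%), and immunoglobulin loci 1 (0.145%) and 10 (0.0712%). Gm gene models, which are mostly predicted, were named for 233 unmarked peaks (33.7%) and 17.5% of marked peaks. The annotation held 20124 Gm, 1420 olfactory receptor, 623 vomeronasal receptor and 409 Zfp genes, against 47042 autosomal genes in all. The family shares were not tested against these numbers.

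The counts of listed genes with an unmarked peak nearby were small. An unmarked peak lay within 50 kb of 4.77% of all autosomal genes and of 5.89% of the 20665 autosomal protein-coding genes. Of 30 T lineage genes 4 (13.3%) had one, and 3 of these, Cd3g, Cd3d and Cd3e, which encode chains of the T cell receptor complex, shared the same peak. This 311-bp peak at chr9:44966805-44967115, with 262 and 291 bp in the replicates, lay just beyond an end of Ube4a, which encodes a ubiquitin ligase, and 345 bp from an H3K27ac peak. Its gaps were 2456 bp to Cd3g, 14653 bp to Cd3d and 31619 bp to Cd3e. The other T lineage gene was Tox, and counted by peaks the list therefore rests on 2.

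Of 15 autosomal B cell and myeloid genes, 3 (20%) had an unmarked peak within 50 kb. Spi1, which encodes the myeloid and B cell factor PU.1, was touched near one end by a 387-bp peak with 218 and 340 bp in the replicates, 13194 bp from its nearest mark, an H3K9ac peak (chr2:91115050-91115436). Cebpa, a factor of granulocyte development, had a 340-bp peak 5862 bp away, with 301 and 338 bp in the replicates, and the nearest mark was H3K36me2 at a gap of 23670 bp. Elane, neutrophil elastase, had a pair of peaks in its neighborhood, 337 bp at Cfd, 403 bp from H3K36me2, and 456 bp in Arid3a, 16 bp from H3K4me3. Both the Spi1 and the Cebpa peak were thus well separated from all 5 marks in this T cell line.

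Of 20 developmental regulators 1 (5%) had an unmarked peak within 50 kb. It was Gata4, a cardiac and endodermal factor, with a 457-bp peak inside the gene, 797 bp from H3K27me3 (chr14:63227747-63228203, 327 and 457 bp in the replicates). Among the housekeeping genes, B2m (the light chain of MHC class I) had a 278-bp peak 8533 bp away, at Patl2 and Trim69. None of 9 autosomal genes of chromatin architecture, among them Ctcf and the cohesin subunits Smc3 and Rad21, had one. With 0 to 4 genes per list, no list was compared with the background by a test. Marked peaks lay within 50 kb of 27 of the 30 T lineage genes, beside 14252 of the 20665 autosomal protein-coding genes. They lay that near to 11 of 15 B cell and myeloid genes and 8 of 20 developmental regulators. The same was true of 8 of 8 autosomal housekeeping genes and 8 of 9 genes of chromatin architecture.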

How the data were processed

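ATAC-seq (2 replicates) and ChIP-seq of 5 marks (2 replicates each) gave 12 peak lists, out of 15 samples. The input library and the RNA-seq of the same cells were not analysed here. The labels and the methods give different tagmentation times for ATAC-seq. Per the labels and methods, the authors aligned reads with STAR 2.5, kept unique alignments, treated duplicates with Picard and called peaks per replicate with MACS2 (ATAC-seq, H3K4me3, H3K9ac, H3K27ac) or Epic (H3K27me3, H3K36me2). The deposited lists hold 3 columns, chromosome, start and end in base pairs on GRCm38, with no score, signal or count, so that depth and its precision are unknown.

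Samples were grouped by their titles. Intervals of both replicates that overlapped or adjoined were merged, a touch was 1 bp, and autosomes 1 to 19 were used. Genes (47042, of which 20665 protein-coding) and promoter sequences (31396 of 25748 genes, none of chromosome 18) were from RefSeq, GRCm38.p6. The gene table has no strand, so gene ends hold both 5′ and 3′ ends. Gaps are between edges. Clusters chain unmarked peaks with gaps of up to 10 kb. Genes and regions named were the 10 widest peaks, the 5 farthest from a mark, the 5 largest clusters (ties by shorter span), 3 on each side of the rule's threshold with their genes, and listed genes within 50 kb. Some listed genes are not reported here. Members and lists were chosen with earlier results of these data known. The 6 gene position tests used 100000 sign flips over autosomes, a threshold of 0.05 and Benjamini-Hochberg adjustment. Alternatives were each replicate left out, other rules for merging, marks, width, gene windows and genes, and 1 peak per cluster, which was added after seeing the data. Counting was checked against bedtools 2.31.1 in 11 comparisons, of which 0 differed, and the permutation test was tested on simulated data. Python 3.11.15, numpy 2.4.6, pandas 2.3.3 and matplotlib 3.10.9 were used.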

Additional observations from a re-analysis of the deposited data

Results flagged for a closer look

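Chromosome X was outside the comparisons, although the ATAC-seq lists hold intervals there. By the stated methods the authors removed reads of the sex chromosomes, so that these intervals go against that description, and they are listed here as data that no comparison used. Of 365 peaks of chromosome X with base pairs in both replicates, 22 (6.03%) touched none of the 5 marks, compared with 4.7% on the autosomes, and the difference was not tested. Their median width was 377 bp.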

How the results depend on the processing

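The number of unmarked peaks was 1846 instead of 692 when all merged ATAC-seq peaks were taken, and ranged from 856 to 1428 when 1 ATAC-seq or ChIP-seq replicate was left out. The higher share of gene ends than in H3K36me2-only peaks lost its call in 9 of 15 alternatives. Its value was 4.93 points with base pairs in both ATAC-seq replicates (adjusted permutation p = 0.104), 4.60 with mark peaks touched by both replicates, 0.311 with no mark within 1000 bp, 3.28 with windows of 1 kb, 0.862 with protein-coding genes and 2.82 with the promoter at the 5′ end only, for genes with a promoter window. It ranged from 3.02 to 6.89 with a replicate left out, and the adjusted permutation p ranged from 0.0208 to 0.935 over all alternatives. The cause was not tested. The other 5 gene position differences kept their direction and stayed under the threshold in all 15, from -46.2 to -35.5 points (gene ends) and from 21.6 to 32.3 (intergenic) against marked peaks. The motif and GC comparisons of peaks were not run, as no genome sequence was used here. The median gap to a mark ranged from 998 to 6062 bp and the share within 10 kb of another unmarked peak from 5.13 to 9.53% over the alternatives that change the peaks. No paired analysis was possible because both replicates enter every set compared, and the test pairs sets within autosomes instead.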
